A study of Homo sapiens with 9 samples.

Results

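The genes described here encode the membrane carriers of amino acids in the SLC1, SLC3, SLC6, SLC7, SLC36, SLC38 and SLC43 families. Members were the protein-coding genes whose symbol places them in these families, with 1 SLC7 gene left out. Each was read from its most highly counted transcript entry and kept if it had at least 15 counts over all 9 libraries. This left 41 of 27671 genes, among them 12 SLC38, 9 SLC6, 8 SLC7, 5 SLC1, 3 SLC43, 2 SLC36 and 2 SLC3 genes. Another 18 matching symbols fell below the minimum, 9 of them with no count in any library.

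Poly(A) RNA was sequenced from Caco-2, a cell line from a human colon adenocarcinoma that is used as a model of the gut lining. The 3 groups of 3 libraries were lovastatin with SGA360, lovastatin with SGA315, and lovastatin alone. The series title calls both compounds selective AHR ligands. AHR, the aryl hydrocarbon receptor, is a transcription factor that responds to small molecules. Every group, the controls included, had 10 µM lovastatin, which blocks cholesterol synthesis, in medium with lipid-depleted serum. Each ligand was given at 10 µM and all cells were harvested at 48 h. In what follows, "with SGA360" and "with SGA315" mean that ligand on top of lovastatin. Cells without lovastatin were not analysed here.

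Amino acids cross the plasma membrane of gut epithelium through carriers that differ in substrate and in coupling to sodium, protons or exchange. Heteromeric transporters join a heavy chain, which brings the complex to the cell surface, to a light chain, which carries the amino acid. SLC3A2 (also called CD98 or 4F2hc) is the heavy chain of the large neutral and the basolateral cationic systems, and SLC3A1 is the heavy chain of the apical cystine and cationic amino acid system. Several of these genes are known targets of the amino acid response, in which shortage of amino acids raises the transcription factor ATF4.

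With 1 entry read per gene, library depth was 12343058 to 16882426 counts with SGA360, 12894083 to 14747162 with SGA315 and 14141156 to 16316156 with lovastatin alone. Levels are CPM, which are counts scaled to the TMM-adjusted size of each library, given as mean ± SD of 3 libraries. The labels name replicates without saying whether cultures were separate, so each p-value measures the spread between libraries, and that spread may be technical. The common biological coefficient of variation was 2.155%. CYP1A1, a cytochrome P450 gene that AHR activates, had 5.24, 5.91 and 5.19 CPM with SGA360, 1040.3, 1086 and 1029 CPM with SGA315, and 43.6, 41.3 and 48.8 CPM with lovastatin alone, so its 3 groups lay far apart. Of 11 intestinal epithelial markers, CDX2, VIL1, EPCAM, CDH1, CDH17, KRT8, KRT18 and ALPI had at least 7.57 CPM in every group's mean, while SI was at most 1.36 CPM in any group's mean and KRT20 and LGALS4 were under 1 CPM. The summed level of these 11 markers was 5348 to 5764 CPM with SGA360, 3942 to 4019 CPM with SGA315 and 7342 to 7426 CPM with lovastatin alone. Most of that sum was KRT8 and KRT18, which fell with both ligands. Of the 9 epithelial markers tested, 1 was higher (ALPI) and 6 lower with SGA360, and 3 were higher (CDX2, ALPI and SI) and 6 lower with SGA315. Of 8 markers of other cell types, PTPRC, COL1A2, ACTA2 and CHGA had at most 0.485 CPM in any group's mean, and the last 3 were at 0 in all libraries of at least 1 group. The sum of all 8 was 37.4 to 40.7 CPM with SGA360, 31.5 to 39.8 CPM with SGA315 and 32.5 to 33.4 CPM with lovastatin alone, with SYP the highest. The part of these marker levels in the results was not tested. In bulk RNA, fewer cells with a transcript and less of it per cell cannot be told apart.

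Of the 41 members, 34 passed the filter on low counts and were tested. With SGA360, 12 were higher and 11 lower than with lovastatin alone at a Benjamini-Hochberg adjusted p under 0.05 in edgeR's quasi-likelihood test, which is 35.3% and 32.4% of those tested. Over all 14659 genes tested, 31.4% were higher and 31.4% lower. With SGA315, 11 members were higher and 13 lower, or 32.4% and 38.2%, against 36.1% of all genes higher and 33.2% lower. Between the ligands, 12 members were higher with SGA360 and 10 higher with SGA315, or 35.3% and 29.4%, against 21.8% and 20.9% of all genes. Both counts of members higher with SGA315 include SLC6A16, which passed the filter on low counts only through its libraries with SGA315. Against lovastatin alone, the shares of the members were therefore near those of all genes, and the results lie in which carriers moved and in which direction.

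The median log2 fold change of the members was 0.04 with SGA360 and −0.05 with SGA315, beside 0.02 and 0.04 for all genes tested. The median size of change, without sign, was 0.31 with SGA360 and 0.30 with SGA315, beside 0.25 and 0.31 for all genes. Scaling to library totals in place of TMM moved the median of all genes to 0.14 with SGA360 and 0.16 with SGA315, and with it the split of members became 16 higher and 8 lower with SGA360 and 15 higher and 10 lower with SGA315. Changes are therefore given relative to TMM scaling. The members' summed level was 5596 to 5741 CPM with SGA360, 5056 to 5123 CPM with SGA315 and 5967 to 5990 CPM with lovastatin alone, so the 3 groups did not overlap.

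**Figure D1:**
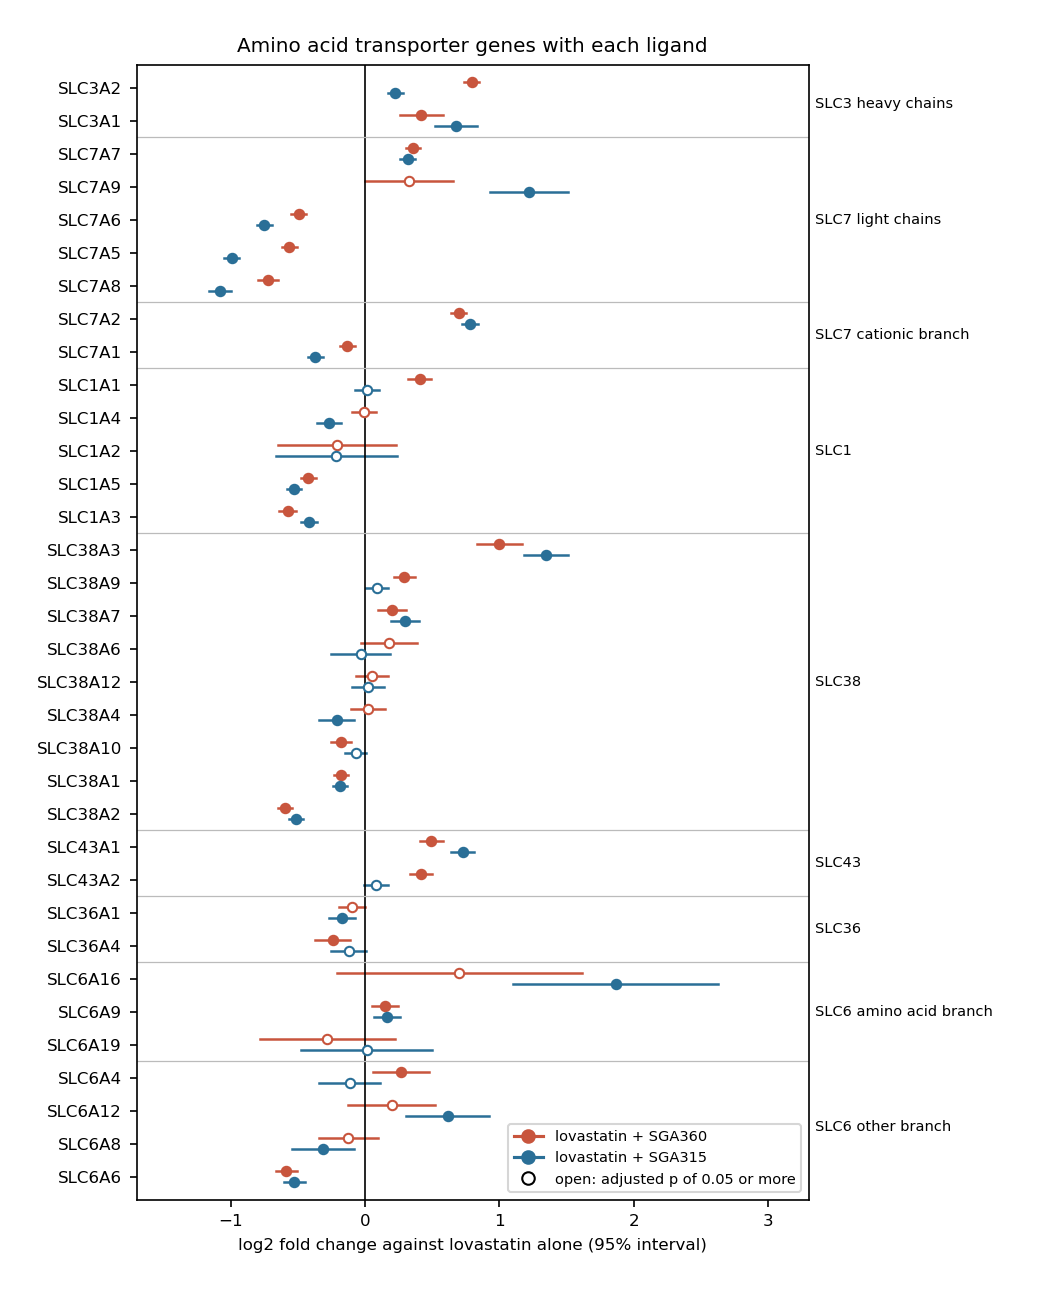
Log2 fold change of each tested amino acid transporter gene (rows, grouped by family) with SGA360 and with SGA315 against lovastatin alone, with 95% intervals from the edgeR fit and open points where the adjusted p was 0.05 or more. Points of SLC3A2 lie to the right of 0 and points of SLC7A5, SLC7A6 and SLC7A8 to the left of 0 for both ligands. Both comparisons use the same 3 lovastatin libraries.

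The heavy chain gene SLC3A2 rose with both ligands, while 3 of the light chain genes that pair with it, SLC7A5, SLC7A6 and SLC7A8, fell. SLC3A2 was the most abundant member per kilobase of transcript in every group. It had 934, 968 and 927 CPM with SGA360, 619, 667 and 621 CPM with SGA315, and 537, 542 and 552 CPM with lovastatin alone. All libraries with SGA360 stood above all with SGA315, and these above all with lovastatin alone. The log2 fold change was 0.79 ± 0.028 with SGA360 (SE; edgeR adjusted p = 2.93e-36), a 1.73-fold higher level, and 0.22 ± 0.028 with SGA315 (adjusted p = 1.32e-10).

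SLC7A5 encodes LAT1, the exchanger that brings leucine and other large neutral amino acids into the cell. It had 557, 577 and 529 CPM with SGA360, 416, 423 and 399 CPM with SGA315, and 829, 836 and 799 CPM with lovastatin alone. The 3 groups did not overlap, with lovastatin alone highest and SGA315 lowest. SLC7A5 fell by 0.56 ± 0.028 on the log2 scale with SGA360 (edgeR adjusted p = 6.52e-28) and by 0.99 ± 0.029 with SGA315 (adjusted p = 3.4e-41). Its level with SGA315 was 1.99-fold lower. A transcribed pseudogene of SLC7A5, SLC7A5P2, held 544 counts over all libraries beside 79402 for SLC7A5, and reads that fit both could have been split between them.

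SLC7A8 encodes LAT2, a light chain of the basolateral membrane for neutral amino acids. It had 82.7, 83.5 and 83.7 CPM with SGA360, 65.4, 67.6 and 61.8 CPM with SGA315, and 133, 145 and 134 CPM with lovastatin alone. Again no library of a ligand group reached the lovastatin libraries. The fall was 0.72 ± 0.037 with SGA360 (edgeR adjusted p = 6.07e-27) and 1.08 ± 0.039 with SGA315 (adjusted p = 2.38e-35).

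SLC7A6 encodes y+LAT2, which exchanges cationic for neutral amino acids. It had 242, 248 and 233 CPM with SGA360, 209.8, 197 and 200.4 CPM with SGA315, and 342, 342 and 337 CPM with lovastatin alone. The groups were separate, in the order of SLC7A5 and SLC7A8. The log2 fold change was −0.49 ± 0.028 with SGA360 (edgeR adjusted p = 1.72e-24) and −0.75 ± 0.029 with SGA315 (adjusted p = 1.14e-33). SLC7A6 overlaps SLC7A6OS, which held 7717 counts beside 34758, and without a stated strand setting the reads of their shared bases cannot be told apart.

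SLC7A7, the basolateral light chain y+LAT1 that exports arginine and lysine from gut and kidney cells, moved the other way. It averaged 571 ± 15.7 CPM with SGA360, 555 ± 3.03 CPM with SGA315 and 446 ± 2.46 CPM with lovastatin alone. Every ligand library lay above every lovastatin library. The rise was 0.36 ± 0.027 with SGA360 (edgeR adjusted p = 3.04e-19) and 0.32 ± 0.027 with SGA315 (adjusted p = 5.58e-17). SLC7A10, the light chain for small neutral amino acids and D-serine, had 36 counts in all and was not tested.

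These opposite movements changed the ratio of heavy to light chain transcripts, taken per library from CPM per kilobase. SLC3A2 over SLC7A5 was 3.42 to 3.58 with SGA360, 3.04 to 3.22 with SGA315 and 1.32 to 1.41 with lovastatin alone. Over SLC7A6 it was 10.96 to 11.28 with SGA360, 8.38 to 9.62 with SGA315 and 4.47 to 4.66 with lovastatin alone. The ratio to SLC7A8 was 21.0 to 22.0 with SGA360, 18.0 to 19.1 with SGA315 and 7.10 to 7.81 with lovastatin alone. For these 3 light chains each library with a ligand had a ratio above each library with lovastatin alone. The ratio to SLC7A7 was 1.77 to 1.86 with SGA360, 1.23 to 1.32 with SGA315 and 1.34 to 1.36 with lovastatin alone, so it was higher with SGA360 and slightly lower with SGA315. The ratios are descriptions, without a test of their own, and transcript ratios do not measure the amounts of protein.

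**Figure D2:**
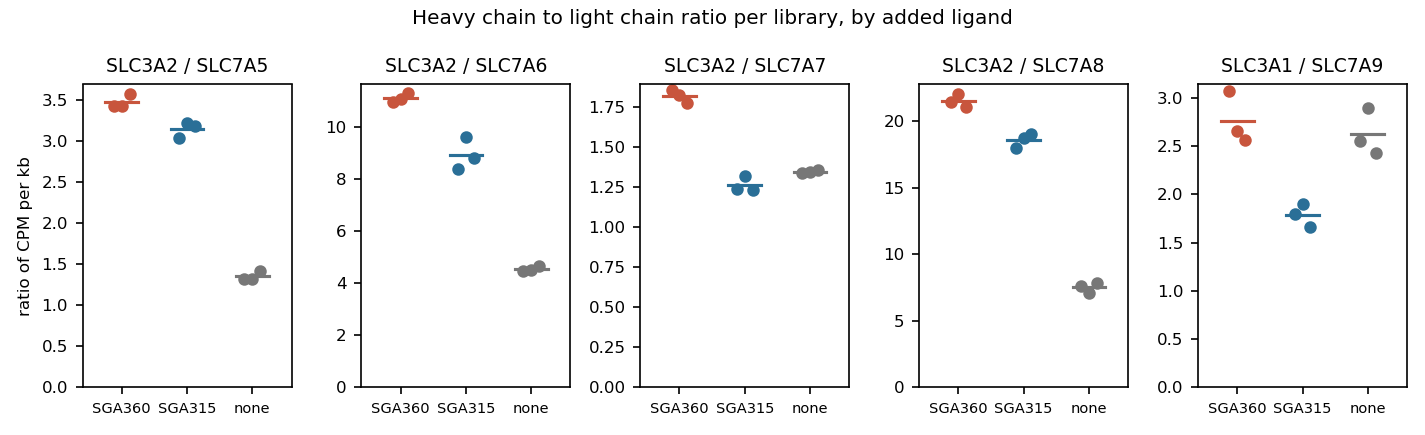
Ratio of heavy chain to light chain transcript, in CPM per kilobase, in each of the 3 libraries with SGA360, SGA315 or lovastatin alone (marked none), with a line at the group mean. SLC3A2 over SLC7A5, SLC7A6 and SLC7A8 was higher in all libraries with a ligand, and SLC3A1 over SLC7A9 was 2.57 to 3.07 with SGA360, 1.67 to 1.90 with SGA315 and 2.43 to 2.897 with lovastatin alone.

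The other pair, SLC3A1 with SLC7A9, forms the apical carrier of cystine and cationic amino acids that is defective in cystinuria. SLC3A1 had 17.9, 16.7 and 19.2 CPM with SGA360, 22.2, 21.4 and 20.3 CPM with SGA315, and 12.8, 13.3 and 13.9 CPM with lovastatin alone. The groups did not overlap, with SGA315 highest. The log2 fold change was 0.42 ± 0.081 with SGA360 (edgeR adjusted p = 7.02e-06) and 0.68 ± 0.079 with SGA315 (adjusted p = 1.12e-11). SLC3A1 overlaps PREPL, which held 15765 counts beside 2325, so its values are uncertain.

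SLC7A9, the light chain of that carrier, had 3.43, 3.71 and 4.40 CPM with SGA360, 7.29, 6.65 and 7.18 CPM with SGA315, and 2.96, 2.70 and 3.37 CPM with lovastatin alone. The libraries with SGA315 stood apart from all others, while those with SGA360 were just above those with lovastatin alone. SLC7A9 rose 2.33-fold with SGA315 (log2 fold change 1.22 ± 0.145; edgeR adjusted p = 2.78e-11). With SGA360 its value of 0.33 ± 0.165 missed the threshold (adjusted p = 0.0758), and it passed with scaling to library totals (0.44, adjusted p = 0.0156).

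For 3 members of these systems the sequence before a transcript start is shown, because the heavy chain and a light chain moved in opposite directions and the glutamine carrier SLC1A5 also fell. The 250 bases upstream of a start were read from RefSeq promoters of assembly GRCh38.p14 on the gene's strand, 5′ to 3′. Capitals mark GCGTG or its reverse complement CACGC, the core that AHR and its partner ARNT are known to bind, or TGATGCAA, a composite element known to bind ATF4 with a C/EBP partner. The windows are chr11:62880646-62880895 (plus strand), chr16:87869508-87869757 (minus strand) and chr19:46784815-46785064 (minus strand), in this order.
SLC3A2: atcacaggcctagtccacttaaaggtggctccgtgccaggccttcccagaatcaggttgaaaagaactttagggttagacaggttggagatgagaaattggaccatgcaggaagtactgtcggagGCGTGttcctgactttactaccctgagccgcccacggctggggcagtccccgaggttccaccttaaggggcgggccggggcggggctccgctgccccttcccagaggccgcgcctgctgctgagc
SLC7A5: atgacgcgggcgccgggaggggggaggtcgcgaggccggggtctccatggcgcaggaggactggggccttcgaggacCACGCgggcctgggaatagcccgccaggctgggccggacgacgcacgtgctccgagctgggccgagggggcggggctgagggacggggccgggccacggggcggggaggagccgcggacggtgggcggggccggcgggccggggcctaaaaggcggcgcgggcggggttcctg
SLC1A5: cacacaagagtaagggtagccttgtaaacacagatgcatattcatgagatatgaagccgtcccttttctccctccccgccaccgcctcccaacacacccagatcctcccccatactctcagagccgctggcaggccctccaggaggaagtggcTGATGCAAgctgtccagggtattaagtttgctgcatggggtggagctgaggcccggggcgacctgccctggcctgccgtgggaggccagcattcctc

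The SLC3A2 window held GCGTG starting 125 bases before the start, and the window of another SLC3A2 start held 2 such cores. The window of a further SLC3A2 start held neither motif. SLC7A5 held CACGC 173 bases before its start. The SLC1A5 window shown, at 1 of 3 starts of that gene in the table, held TGATGCAA 97 bases before the start. The windows of the other SLC1A5 starts held neither motif. Among the other members with a window, only SLC1A3 held TGATGCAA, 220 bases before 1 of its starts. Of the 41 members, 34 had at least 1 window in the table. On either strand, GCGTG was in at least 1 window of 22 of these 34 genes (64.71%), beside 36.22% of all 27305 genes, and TGATGCAA in 2 (5.88%), beside 0.97%. By window, GCGTG was in 26 of 55 member windows (47.27%) and in 32.22% of 35116 windows of all genes. All genes here were not selected by type or by level in these cells, while the members are protein-coding and have counts in them. Base content and windows per gene were not matched either, so these shares are descriptions, and a difference between them was not tested. No TGATGCAA match overlapped a GCGTG match, and a match describes these bases without showing a bound site.

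**Figure D3:**
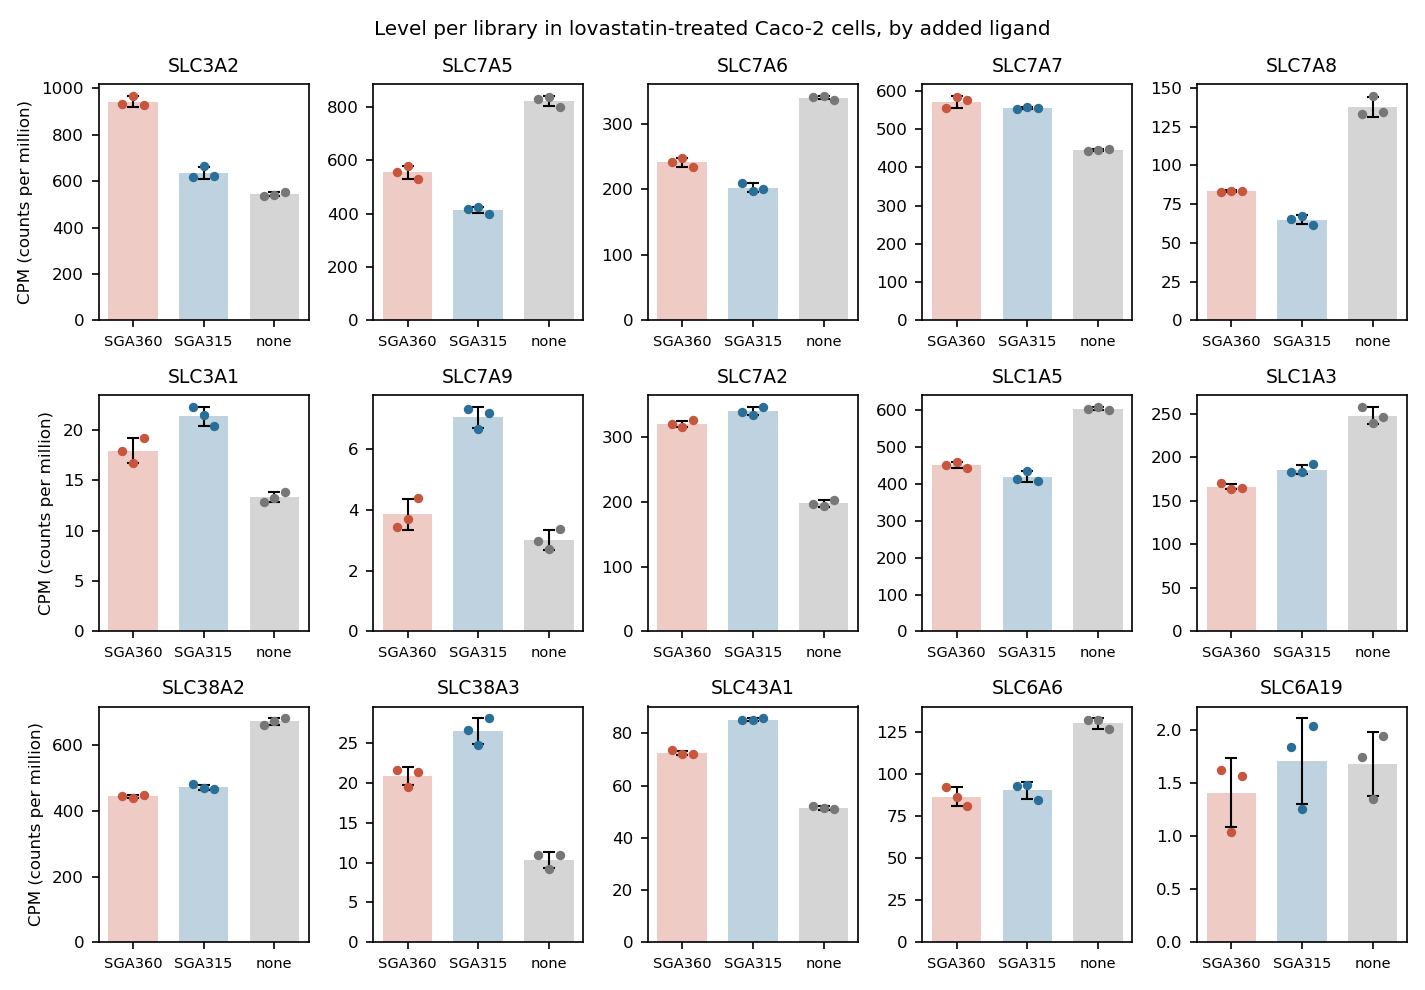
CPM of 15 amino acid transporter genes in each library (points) with the mean (bars, from 0) and SD (error bars) of 3 libraries with SGA360, SGA315 or lovastatin alone (marked none). SLC3A2 was highest with SGA360, SLC7A9 was highest with SGA315, SLC7A5 was lowest with SGA315, and the libraries of SLC6A19 overlapped between all groups.

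The cationic branch of SLC7 needs no heavy chain, and its 2 tested genes moved in opposite directions. SLC7A2, the arginine and lysine carrier CAT2, rose with both ligands. It had 319.7, 316 and 326 CPM with SGA360, 339, 334 and 347 CPM with SGA315, and 197, 193 and 202 CPM with lovastatin alone. No lovastatin library came near those with a ligand. The rise was 0.70 ± 0.029 with SGA360 (edgeR adjusted p = 2.92e-32) and 0.78 ± 0.029 with SGA315 (adjusted p = 3.01e-35). SLC7A1, the widely expressed carrier CAT1, averaged 335 ± 13 CPM with SGA360, 284 ± 6.18 CPM with SGA315 and 367 ± 3.71 CPM with lovastatin alone. It fell by 0.13 ± 0.028 with SGA360 (edgeR adjusted p = 3.21e-05) and by 0.37 ± 0.028 with SGA315 (adjusted p = 9.3e-19). The call with SGA360 ended with scaling to library totals (−0.02, adjusted p = 0.584).

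Per kilobase, SLC7A2 was at 42.1 ± 0.631 CPM with SGA360, 44.6 ± 0.826 CPM with SGA315 and 25.9 ± 0.617 CPM with lovastatin alone. SLC7A1 was at 45.6 ± 1.77 CPM per kilobase with SGA360, 38.7 ± 0.841 with SGA315 and 50.0 ± 0.505 with lovastatin alone. SLC7A2 was thus above SLC7A1 with SGA315, and below it with SGA360 and with lovastatin alone.

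In the SLC1 family, which holds the sodium-coupled glutamate carriers and the neutral amino acid exchangers, 2 of 5 genes fell with both ligands. Of all genes tested, 31.4% were lower with SGA360 and 33.2% with SGA315. SLC1A5 encodes ASCT2, a glutamine exchanger that supplies many tumour cells. It had 450.5, 458 and 443 CPM with SGA360, 414, 436 and 408 CPM with SGA315, and 602, 609 and 601 CPM with lovastatin alone. The lovastatin libraries were above all others. The log2 fold change was −0.42 ± 0.027 with SGA360 (edgeR adjusted p = 2.3e-22) and −0.53 ± 0.027 with SGA315 (adjusted p = 2.94e-27).

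SLC1A3, the glutamate and aspartate carrier EAAT1, had 170.4, 164 and 165 CPM with SGA360, 183, 183 and 192 CPM with SGA315, and 258, 239.6 and 246 CPM with lovastatin alone. It was lowest in the libraries with SGA360. The fall was 0.57 ± 0.031 with SGA360 (edgeR adjusted p = 5.68e-26) and 0.42 ± 0.031 with SGA315 (adjusted p = 2e-19). SLC1A1, the epithelial glutamate carrier EAAT3, rose with SGA360, at 71.8 ± 0.773 CPM against 54.2 ± 0.725 CPM with lovastatin alone (0.41 ± 0.042; edgeR adjusted p = 3.66e-13), and had 54.6 ± 0.758 CPM with SGA315 (0.01 ± 0.045, adjusted p = 0.803), a value that passed with scaling to library totals (0.13, adjusted p = 0.00702). SLC1A4, the neutral exchanger ASCT1, had 63.0 ± 0.783 CPM with SGA360 and 63.2 ± 1.64 CPM with lovastatin alone, and fell with SGA315 to 52.7 ± 2.34 CPM (−0.27 ± 0.045; edgeR adjusted p = 5.01e-07). With scaling to library totals, SLC1A4 instead passed as higher with SGA360 (0.11, adjusted p = 0.0267). SLC1A2, the main glutamate carrier of astrocytes, was at 1.78 to 2.08 CPM in the group means and was called in no comparison.

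The SLC38 family comprises sodium-coupled carriers of glutamine and other neutral amino acids, and 9 of its 12 members were tested. With SGA360, 3 were higher and 3 lower, or 33.3% each, beside 31.4% and 31.4% of all genes. With SGA315, 2 were higher and 3 lower, or 22.2% and 33.3%, beside 36.1% and 33.2% of all genes. As counts, these were near or below the shares of all genes. SLC38A2, the system A carrier SNAT2 that is known to rise when amino acids are short, fell with both ligands. It had 446, 440.4 and 448 CPM with SGA360, 481, 469.8 and 466 CPM with SGA315, and 663, 673 and 684 CPM with lovastatin alone. Each library with a ligand was below each with lovastatin alone. The log2 fold change was −0.60 ± 0.026 with SGA360 (edgeR adjusted p = 8.85e-31) and −0.51 ± 0.026 with SGA315 (adjusted p = 2.38e-27).

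SLC38A3, the glutamine and histidine carrier SNAT3, moved in the other direction, at a lower level. It had 21.6, 19.5 and 21.4 CPM with SGA360, 26.6, 24.7 and 28.0 CPM with SGA315, and 10.9, 9.15 and 10.9 CPM with lovastatin alone. The 3 groups were separate, with SGA315 highest. SLC38A3 rose by 1.00 ± 0.084 with SGA360 (edgeR adjusted p = 9.38e-17) and by 1.35 ± 0.081 with SGA315 (adjusted p = 1.06e-23), the largest rise among the 9 tested SLC38 genes with each ligand.

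SLC38A1, the glutamine carrier SNAT1, fell by less: it averaged 667 ± 4.33 CPM with SGA360, 663 ± 7.96 CPM with SGA315 and 755 ± 5.83 CPM with lovastatin alone (−0.18 ± 0.026 and −0.19 ± 0.026 in the edgeR fit, adjusted p = 1.01e-08 and 2.22e-09). Of the lysosomal members, SLC38A9, a sensor of arginine for mTORC1, rose with SGA360 to 88.8 ± 1.97 CPM, against 72.5 ± 3.34 CPM with lovastatin alone (0.29 ± 0.040; edgeR adjusted p = 2.44e-09), and had 76.97 ± 0.880 CPM with SGA315 (0.09 ± 0.041, adjusted p = 0.0561). The value with SGA315 passed with the replicate number as a block (adjusted p = 0.0447), with scaling to library totals (0.21, adjusted p = 1.11e-05) and without lovastatin replicate 3 (adjusted p = 0.0467). SLC38A7, a lysosomal glutamine exporter, rose with both, to 42.7 ± 0.449 CPM with SGA360 and 45.6 ± 1.80 CPM with SGA315, against 37.1 ± 1.60 CPM with lovastatin alone (0.20 ± 0.052 and 0.30 ± 0.052, edgeR adjusted p = 0.000631 and 9.69e-07).

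SLC38A10 fell with SGA360 (−0.18 ± 0.038; edgeR adjusted p = 4.15e-05) and had −0.07 ± 0.038 with SGA315 (adjusted p = 0.0947). The first call ended with scaling to library totals (−0.06, adjusted p = 0.132), and the second value passed with RLE scaling (−0.09, adjusted p = 0.0318), without the filter, with the compared groups only and with the other transcript entry (−0.33, adjusted p = 4.31e-10). It also passed without lovastatin replicate 1, SGA360 replicate 1 or 2, or SGA315 replicate 1 or 2, at adjusted p up to 0.0471. SLC38A4 fell with SGA315 (−0.21 ± 0.065; adjusted p = 0.00347), which missed the threshold when lovastatin replicate 1 was left out (adjusted p = 0.0558) or when library totals set the scale (adjusted p = 0.218). SLC38A6 and SLC38A12 passed in neither comparison with lovastatin alone, and SLC38A6 overlaps the more counted TRMT5. With scaling to library totals, SLC38A12 passed with SGA360 (0.17, adjusted p = 0.0106) and with SGA315 (0.14, adjusted p = 0.0276), and SLC38A6 with SGA360 (0.29, adjusted p = 0.0109).

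Both tested SLC43 genes, facilitated carriers of large neutral amino acids, rose with SGA360. SLC43A1, or LAT3, had 73.5, 72.2 and 72.1 CPM with SGA360, 85.0, 85.0 and 86.0 CPM with SGA315, and 52.4, 51.4 and 50.9 CPM with lovastatin alone. The groups stood well apart, in the order opposite to that of SLC7A5. The rise was 0.49 ± 0.043 with SGA360 (edgeR adjusted p = 2.26e-16) and 0.73 ± 0.042 with SGA315 (adjusted p = 1.15e-24). SLC43A2, or LAT4, averaged 83.2 ± 1.53 CPM with SGA360, 65.8 ± 3.03 CPM with SGA315 and 62.3 ± 2.11 CPM with lovastatin alone. Its rise was 0.42 ± 0.042 with SGA360 (edgeR adjusted p = 8.57e-14), and the value of 0.08 ± 0.044 with SGA315 missed the threshold (adjusted p = 0.0938). That value passed without SGA315 replicate 3 (adjusted p = 0.0301) and with scaling to library totals (0.20, adjusted p = 5.17e-05). SLC43A3, a carrier of purine bases, had 40 counts in all and was not tested.

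The large neutral amino acid carriers thus differed in direction: SLC7A5 and SLC7A8, which exchange their substrates, fell with both ligands, and SLC43A1, which lets them diffuse, rose with both. Per kilobase, SLC7A5 was at 122 ± 5.29 CPM with SGA360, 91.0 ± 2.76 CPM with SGA315 and 181 ± 4.36 CPM with lovastatin alone. SLC43A1 was at 27.9 ± 0.314 CPM per kilobase with SGA360, 32.8 ± 0.233 with SGA315 and 19.8 ± 0.287 with lovastatin alone, so SLC7A5 remained the more abundant in every group.

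The SLC36 carriers, which act at the lysosome and the gut surface, changed little. SLC36A1 averaged 53.6 ± 0.956 CPM with SGA360, 51.0 ± 3.31 CPM with SGA315 and 57.2 ± 2.67 CPM with lovastatin alone. It fell with SGA315 (−0.17 ± 0.048; edgeR adjusted p = 0.0015), with overlap between the libraries and not with scaling to library totals (adjusted p = 0.365). With SGA360 its value was −0.10 ± 0.047 (adjusted p = 0.0651). That adjusted p lay between 0.0223 and 0.767 over the alternatives, and the value passed as lower with RLE scaling (adjusted p = 0.0409), without the filter on low counts (adjusted p = 0.0462), with the lowest accession per gene (adjusted p = 0.0348), and without lovastatin replicate 2, SGA360 replicate 2 or any 1 library with SGA315. SLC36A4 fell with SGA360 (−0.24 ± 0.066; edgeR adjusted p = 0.00118), but not with scaling to library totals (adjusted p = 0.0881), and had −0.12 ± 0.066 with SGA315 (adjusted p = 0.0952), a value that passed without SGA315 replicate 1 (−0.21, adjusted p = 0.0103).

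In the SLC6 family, SLC6A19 encodes B0AT1, the main apical carrier of neutral amino acids in the small intestine. It had 1.63, 1.04 and 1.57 CPM with SGA360, 1.84, 1.26 and 2.04 CPM with SGA315, and 1.75, 1.35 and 1.94 CPM with lovastatin alone. The libraries of all groups overlapped, at 0.273 to 0.331 CPM per kilobase in the group means. The log2 fold change was −0.28 with SGA360 (95% interval −0.78 to 0.22) and 0.01 with SGA315 (−0.48 to 0.50), so at this depth a moderate change in either direction was not detectable.

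SLC6A6, the taurine carrier, had 92.3, 86.4 and 80.9 CPM with SGA360, 92.9, 93.4 and 84.7 CPM with SGA315, and 132, 132 and 127 CPM with lovastatin alone. The libraries of both ligands overlapped and lay below all with lovastatin alone. It fell by 0.59 ± 0.039 with SGA360 (edgeR adjusted p = 2.01e-21) and by 0.53 ± 0.039 with SGA315 (adjusted p = 2.7e-19). SLC6A9, the glycine carrier GLYT1, rose slightly to 50.0 ± 1.26 CPM with SGA360 and 50.5 ± 0.881 CPM with SGA315, against 45.1 ± 2.32 CPM with lovastatin alone (0.15 ± 0.049 and 0.17 ± 0.049, edgeR adjusted p = 0.00717 and 0.00236). Both calls ended without lovastatin replicate 1 (adjusted p = 0.155 and 0.0769), and the first also with DESeq2 (adjusted p = 0.052).

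The other SLC6 genes were low. SLC6A16, whose substrate is not established, averaged 0.594 ± 0.198 CPM with SGA360, 1.37 ± 0.451 CPM with SGA315 and 0.359 ± 0.196 CPM with lovastatin alone. It was higher with SGA315 (1.87 ± 0.382; edgeR adjusted p = 1.78e-05) on 102 counts in all. SLC6A16 passed the filter on low counts only through its libraries with SGA315, at 18, 15 and 25 counts. It had 7, 14 and 7 counts with SGA360 and 8, 2 and 6 with lovastatin alone. The filter thus favoured a higher level with SGA315, so this call is no independent support for a rise. SLC6A16 also overlaps CD37, which held 78 counts. SLC6A12, the betaine and GABA carrier, rose with SGA315 (0.61 ± 0.154; edgeR adjusted p = 0.000343) to 4.98 ± 0.377 CPM, against 3.26 ± 0.195 CPM with lovastatin alone. SLC6A8, the creatine carrier, fell with SGA315 (−0.31 ± 0.116; edgeR adjusted p = 0.0154), which missed the threshold when SGA315 replicate 2 was left out (adjusted p = 0.0623) or when library totals set the scale (adjusted p = 0.138).

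SLC6A4, the serotonin carrier, rose with SGA360 (0.27 ± 0.104; edgeR adjusted p = 0.0222) to 10.6 ± 1.58 CPM, against 8.93 ± 0.965 CPM with lovastatin alone, but its libraries overlapped. That call ended with DESeq2 (adjusted p = 0.12) and without lovastatin replicate 1 (adjusted p = 0.172), lovastatin replicate 3 (adjusted p = 0.0818) or SGA360 replicate 1 (0.12, adjusted p = 0.388). SLC6A13, SLC6A20, SLC38A5, SLC38A8 and SLC38A11 had 15 to 68 counts in all and were not tested.

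**Figure D4:**
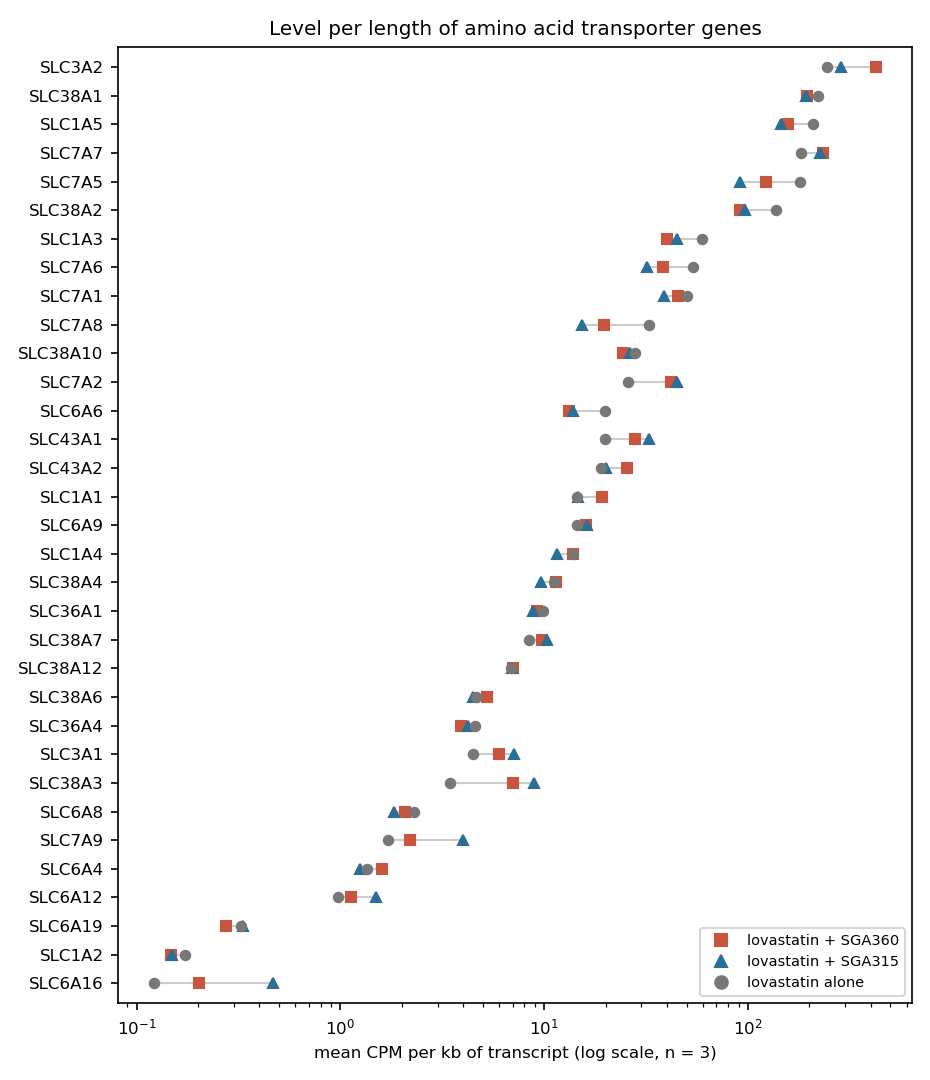
Mean CPM per kilobase of transcript (log axis, n = 3) of the 33 tested genes with a known transcript length, with SGA360 (squares), SGA315 (triangles) and lovastatin alone (circles), ordered by the level with lovastatin alone. SLC3A2 was highest in every group, and SLC6A19, SLC1A2 and SLC6A16 were the lowest.

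Per kilobase, the leading members with lovastatin alone were SLC3A2 at 245 ± 3.48 CPM, SLC38A1 at 220 ± 1.70, SLC1A5 at 210 ± 1.52, SLC7A7 at 182 ± 1.00, SLC7A5 at 181 ± 4.36 and SLC38A2 at 138 ± 2.18. SLC7A7 and SLC7A5 differed by less than the spread of SLC7A5. With SGA360 the order was SLC3A2 at 424 ± 9.95 CPM per kilobase, SLC7A7 at 234 ± 6.41, SLC38A1 at 194 ± 1.26, SLC1A5 at 156 ± 2.66, SLC7A5 at 122 ± 5.29 and SLC38A2 at 91.0 ± 0.817. With SGA315 it was SLC3A2 at 286 ± 12.2 CPM per kilobase, SLC7A7 at 227 ± 1.24, SLC38A1 at 193 ± 2.32, SLC1A5 at 145 ± 5.12, SLC38A2 at 96.6 ± 1.59 and SLC7A5 at 91.0 ± 2.76. These 6 genes led in every group, with SLC7A7 next in rank to SLC3A2 when a ligand was present, and below SLC38A1 and SLC1A5 as well without one.

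Set directly against each other at matched dose and time, the ligands differed in 22 of 34 tested members. Of these, 12 were higher with SGA360 and 10 with SGA315 (35.3% and 29.4% of those tested), beside 21.8% and 20.9% of all genes. The median size of difference, without sign, was 0.22, beside 0.15 for all genes tested. SLC3A2 was 1.48-fold higher with SGA360 (0.57 ± 0.027; 95% interval 0.52 to 0.62; edgeR adjusted p = 8.33e-28), the largest difference in that direction. SLC7A5 was also higher with SGA360, by 0.43 ± 0.029 (edgeR adjusted p = 2.45e-20), SLC7A8 by 0.36 ± 0.042 (adjusted p = 9.54e-11) and SLC7A6 by 0.25 ± 0.030 (adjusted p = 1.02e-10), the levels of these 3 light chains being lowest with SGA315. SLC1A1 was higher by 0.39 ± 0.042 (edgeR adjusted p = 4.48e-12), SLC43A2 by 0.34 ± 0.041 (adjusted p = 3.65e-10), SLC1A4 by 0.26 ± 0.045 (adjusted p = 2.16e-06), SLC7A1 by 0.24 ± 0.028 (adjusted p = 1.38e-10) and SLC38A9 by 0.21 ± 0.040 (adjusted p = 1.64e-05). SLC38A4, SLC6A4 and SLC1A5 made up the 12, and the call of SLC6A4 ended without SGA360 replicate 1 (adjusted p = 0.0928).

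Higher with SGA315 were SLC7A9, at −0.89 ± 0.135 for SGA360 over SGA315 (95% interval −1.16 to −0.62; edgeR adjusted p = 1.12e-07), and SLC6A16 (−1.17 ± 0.334, adjusted p = 0.00319; −0.89 and adjusted p = 0.0575 without SGA315 replicate 3). The call of SLC6A16 was favoured by the filter, which it passed only through its libraries with SGA315. SLC38A3 (−0.35 ± 0.069), SLC3A1 (−0.26 ± 0.073), SLC43A1 (−0.23 ± 0.039) and SLC1A3 (−0.16 ± 0.032) followed, with edgeR adjusted p between 1.07e-06 and 0.00251. SLC7A2 and SLC38A2 differed by −0.09 each, and the call ended for SLC7A2 without SGA360 replicate 2 (adjusted p = 0.0563) and for SLC38A2 without SGA315 replicate 1 (adjusted p = 0.052). SLC6A12 (−0.42 ± 0.146; adjusted p = 0.017) lost its call with DESeq2 (adjusted p = 0.111) and without SGA360 replicate 1 (adjusted p = 0.0989) or SGA315 replicate 1 (adjusted p = 0.0735). SLC38A10 (−0.11 ± 0.038; adjusted p = 0.0181) lost it with DESeq2 (adjusted p = 0.0951), without SGA360 replicate 3 (adjusted p = 0.251), SGA315 replicate 1 (adjusted p = 0.0949) or SGA315 replicate 2 (adjusted p = 0.0646), and with the other entry.

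For the other 12 tested members the difference between ligands missed the threshold, which does not show that the ligands act alike. The interval was narrow for SLC38A1 (0.01, 95% interval −0.04 to 0.06), SLC7A7 (0.04, −0.01 to 0.09), SLC6A9 (−0.02, −0.11 to 0.08) and SLC6A6 (−0.06, −0.14 to 0.02). It was wide for SLC6A19 (−0.29, −0.79 to 0.21) and SLC1A2 (0.00, −0.46 to 0.46). SLC36A1 passed without SGA315 replicate 3 (0.12, adjusted p = 0.0477) and SLC36A4 without SGA315 replicate 2 (−0.19, adjusted p = 0.0333).

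**Figure D5:**
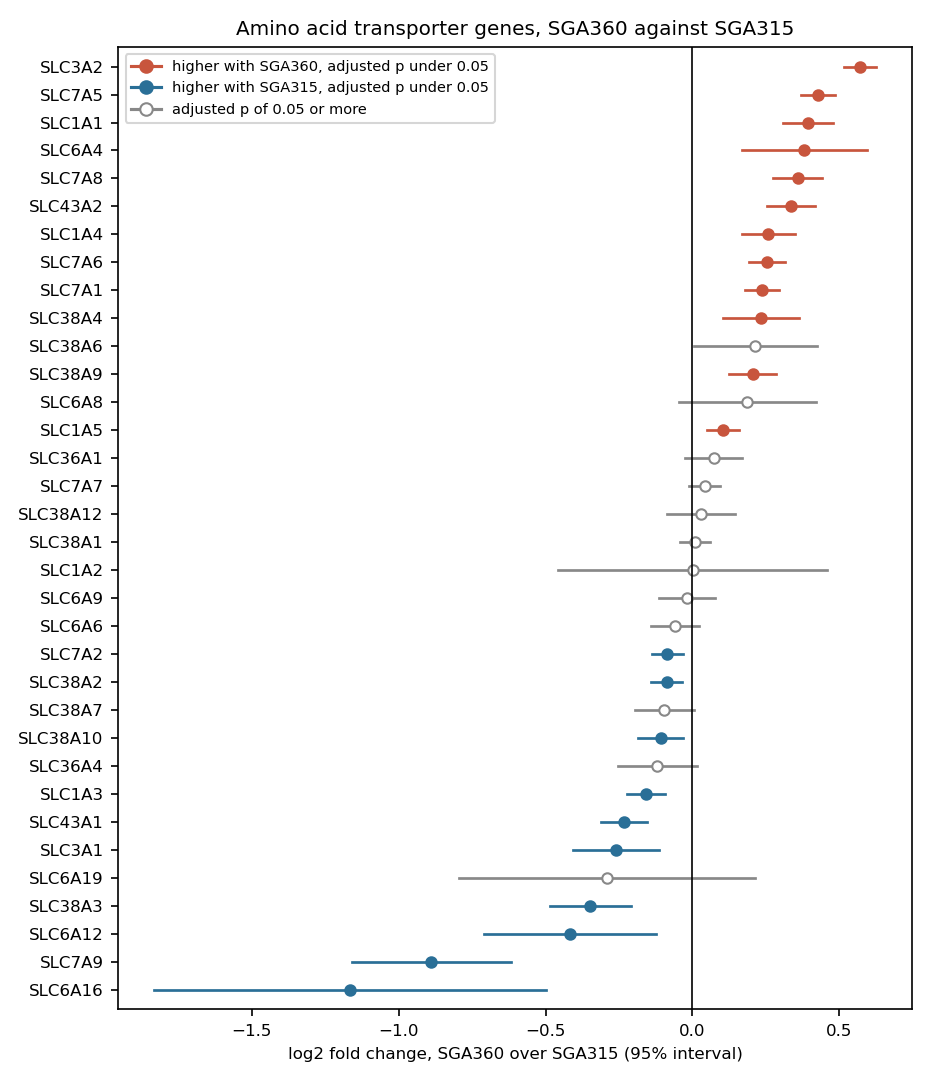
Log2 fold change of SGA360 over SGA315 for the 34 tested amino acid transporter genes, with 95% intervals from the edgeR fit. SLC3A2 (0.57) and SLC7A5 (0.43) lead among genes higher with SGA360, SLC6A16 (−1.17) and SLC7A9 (−0.89) among genes higher with SGA315, and 12 grey genes had an adjusted p of 0.05 or more. SLC6A16 passed the filter on low counts only through its libraries with SGA315, which favoured that direction.

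Other genes of amino acid handling were read from lists, described by counts beside the shares of all genes. Those shares were 31.4% higher and 31.4% lower with SGA360, and 36.1% and 33.2% with SGA315. Of 15 tested genes of the amino acid response outside transport, 11 were higher and 2 lower with SGA360 (73.3% and 13.3%), at a median log2 fold change of 0.30. With SGA315, 10 of them were higher and 4 lower (66.7% and 26.7%), at a median of 0.32. TRIB3, a pseudokinase gene induced by ATF4, had 415, 420.3 and 414 CPM with SGA360, 346, 353 and 327 CPM with SGA315, and 251, 254 and 252 CPM with lovastatin alone. It rose with both ligands, by 0.72 ± 0.028 (edgeR adjusted p = 7.6e-34) and 0.44 ± 0.028 (adjusted p = 3.97e-22). DDIT4, an inhibitor of mTORC1, rose by 0.53 ± 0.035 with SGA360 and 0.79 ± 0.035 with SGA315, and CEBPG, a C/EBP partner of ATF4, by 0.35 ± 0.034 and 0.54 ± 0.033. The transcript of ATF4 itself fell, by 0.22 ± 0.027 with SGA360 (edgeR adjusted p = 1.17e-10) and 0.06 ± 0.027 with SGA315 (adjusted p = 0.0428). CHAC1, an enzyme of glutathione breakdown that ATF4 signalling is known to induce, fell by 0.17 ± 0.058 and 0.45 ± 0.062. These were the 2 genes of the list lower with SGA360, and both were named after their values were seen.

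Of 14 tested enzymes of glutamine, glutamate and proline metabolism, 2 were higher and 8 lower with SGA360, and 3 were higher and 10 lower with SGA315, at medians of −0.13 and −0.23. That is 14.3% and 57.1% with SGA360 (all genes 31.4% and 31.4%), and 21.4% and 71.4% with SGA315 (all genes 36.1% and 33.2%). GLUD1, glutamate dehydrogenase, averaged 616 ± 9.12 CPM with SGA360, 538 ± 10.4 CPM with SGA315 and 924 ± 12.2 CPM with lovastatin alone, a fall of 0.58 ± 0.026 and 0.78 ± 0.026 (edgeR adjusted p = 2.09e-30 and 2.53e-37). GPT2, mitochondrial alanine transaminase, fell by 0.47 ± 0.031 with SGA360 and 0.63 ± 0.032 with SGA315.

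Of 10 tested enzymes of branched chain and arginine metabolism, 3 were higher and 2 lower with SGA360, and 2 were higher and 6 lower with SGA315. As shares, these were 30% and 20% with SGA360 (all genes 31.4% and 31.4%), and 20% and 60% with SGA315 (all genes 36.1% and 33.2%). ASS1, which makes argininosuccinate on the way to arginine, rose to 135 ± 3.85 CPM with SGA360 and 169.7 ± 7.68 CPM with SGA315, against 65.6 ± 3.87 CPM with lovastatin alone (1.04 ± 0.040 and 1.37 ± 0.039, edgeR adjusted p = 7.12e-34 and 2.05e-41). BCAT2, the mitochondrial branched chain transaminase, fell by 0.30 ± 0.045 and 0.52 ± 0.047. ODC1, which makes putrescine from ornithine, fell by 0.07 ± 0.026 with SGA360 and 0.34 ± 0.027 with SGA315.

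Of 16 tested carriers of amino acids and peptides outside these families, 6 were higher and 3 lower with SGA360, and 7 were higher and 4 lower with SGA315. The shares were 37.5% and 18.8% with SGA360 (all genes 31.4% and 31.4%), and 43.8% and 25% with SGA315 (all genes 36.1% and 33.2%). SLC25A12, the mitochondrial aspartate and glutamate carrier, rose to 9.65 ± 0.397 CPM with SGA360 and 8.19 ± 0.518 CPM with SGA315, against 3.48 ± 0.0279 CPM with lovastatin alone (1.46 ± 0.126 and 1.24 ± 0.132, edgeR adjusted p = 1.97e-16 and 7.12e-13). SLC25A22, a mitochondrial glutamate carrier, fell by 0.58 ± 0.055 and 0.87 ± 0.058, and SLC25A38, a mitochondrial glycine carrier, rose by 0.44 ± 0.044 and 0.59 ± 0.044.

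Of 4 tested apical partners and peptidases, which cut peptides at the brush border or assist carriers there, 1 was higher and 2 lower with SGA360, and 2 were higher and 1 lower with SGA315. In percent this is 25% and 50% with SGA360 (all genes 31.4% and 31.4%), and 50% and 25% with SGA315 (all genes 36.1% and 33.2%). ANPEP, aminopeptidase N, averaged 13.8 ± 0.794 CPM with SGA360, 31.1 ± 0.0263 CPM with SGA315 and 16.1 ± 1.62 CPM with lovastatin alone, so it fell with SGA360 (−0.22 ± 0.082; edgeR adjusted p = 0.0186) and rose with SGA315 (0.95 ± 0.071; adjusted p = 2.17e-19). DPP4, dipeptidyl peptidase 4, fell by 0.66 ± 0.030 and 0.51 ± 0.030, and ENPEP, aminopeptidase A, rose by 0.69 ± 0.227 and 0.94 ± 0.222.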

How the data were processed

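RNA-seq counts were used from all 9 libraries, 3 per group, grouped by the labels. The authors deposited a table of raw counts, whole numbers per RefSeq transcript entry and library, per the file headers. The submitters' processing notes name TopHat2 2.0.13, HTSeq 0.5.4p3 and build hg19, without roles. Annotation release: not given in the sources used here. Strand setting: likewise not given, so overlapping genes may share reads.

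Of 65325 entries, 64346 took gene names from RefSeq (GRCh38.p14) and 565 from GENCODE 29. The other 414 entries (0.224% of counts) were left out. Each gene was read from its entry with the highest total. Where genes had identical counts (42 sets), 65 duplicates were dropped, which left 27671. Lengths per kilobase came from matched GENCODE transcripts for 40 of the 41 members (none for SLC38A9).

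A single edgeR fit (version 4.0.16, R 4.3.3) of all libraries gave quasi-likelihood F tests. It used TMM scaling, filterByExpr (minimum count 10, minimum total 15) and no covariate. Calls needed an adjusted p under 0.05 (Benjamini-Hochberg, 14659 genes). CPM, SE and 95% intervals come from that fit. A count of 0 allows up to 3 counts, or 0.174 to 0.236 CPM by library. This limit covers counting error only. The procedure was tested on simulated data with far fewer changed genes than here, balanced in direction. That test therefore does not measure the scaling or the share of false calls in these data.

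The members and lists were chosen with earlier results of these data known. Values per library are given for members with a mean of at least 5 CPM in 1 group and a called change of at least 0.5 on the log2 scale, for 7 genes fixed by name, and for CYP1A1. Each pathway list gave the 3 genes with the smallest p, of which 1 is not reported here. TRIB3 and SLC15A1 are also given per library. Other members and markers are named to account for them. SLC38A12 met the symbol rule but stood in no role list, and was placed with the SLC38 genes. Alternatives were RLE scaling, scaling to totals, DESeq2 1.42.0, no filter, the compared groups only, a replicate block, the lowest accession per gene, and leaving out each library.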

Additional observations from a re-analysis of the deposited data

How the results depend on the processing

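Each of the 102 member results was recomputed under 16 alternatives, except that SLC6A16 with SGA360 had 15, since it gave no value with the compared groups only. Of 1631 values, 1537 kept their direction and their side of the threshold, 26 lost the call, 30 gained it and 38 changed sign. In 67 of the 102 results no alternative changed the call or the sign. The counts of members ranged over all alternatives between 10 and 16 higher and 8 and 12 lower with SGA360, 10 and 15 higher and 10 and 15 lower with SGA315, and 11 and 13 higher and 7 and 11 lower for SGA360 against SGA315. With a replicate block they were 12 higher and 11 lower with SGA360, 12 higher and 13 lower with SGA315, and 12 higher and 10 lower between the ligands, and the block changed no member's call other than that of SLC38A9 with SGA315. The labels do not say what libraries of the same replicate number share. Between groups, libraries of the same number had correlations of 0.014 to 0.088 in their deviations from the group means. Libraries of different numbers had −0.061 to 0.03. In 15 of 18 matches of a library with another group, the best correlation was with its own number. The source of this small link was not tested.

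No changed sign belonged to a value called with TMM scaling and all libraries, except SLC38A10 between the ligands, which was 0.032 with the lowest accession. With scaling to totals the sign changed for SLC1A4 with SGA360 (0.11, then called as higher), SLC36A1 with SGA360 (0.017), SLC38A10 with SGA315 (0.051), SLC38A6 with SGA315 (0.088), SLC6A4 with SGA315 (0.0066) and SLC1A2 between the ligands (−0.0055). SLC1A2 between the ligands was −0.0025 with the replicate block. SLC1A1 with SGA315 was −0.0064 with RLE, −0.0068 with DESeq2, −0.0054 without the filter and −0.00033 with the compared groups only. SLC6A19 with SGA315 was −0.0079, −0.00057, −0.0069 and −0.0018 in these fits and −0.0014 with the lowest accession. Leaving out 1 library gave −0.0037 to 0.10 for SLC38A12 with SGA360, −0.014 to 0.042 with SGA315 and −0.012 to 0.078 between the ligands, and −0.032 to 0.080 for SLC38A4 with SGA360. It gave −0.012 to 0.021 for SLC1A1 and −0.12 to 0.18 for SLC6A19 with SGA315, and −0.17 to 0.10 for SLC1A2 and −0.0013 to 0.016 for SLC38A1 between the ligands. The cause was not tested.

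Depth limits the members at 1 to 2 CPM, such as SLC6A19 and SLC1A2, whose intervals are wide, and the 7 members that were not tested.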

Other observations

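Of the 4 SLC15 genes, which are outside the families described, SLC15A1, SLC15A2 and SLC15A4 were higher with each ligand, and SLC15A3 was called in neither comparison (edgeR adjusted p = 0.673 and 0.733). Among all genes tested, 31.4% were higher with SGA360 and 36.1% with SGA315. SLC15A1, the apical di- and tripeptide carrier PEPT1 of the small intestine, had 11.6, 11.5 and 10.6 CPM with SGA360, 10.3, 9.67 and 11.4 CPM with SGA315, and 6.32, 5.25 and 5.12 CPM with lovastatin alone. All libraries with a ligand were above those with lovastatin alone, with a log2 fold change of 1.02 ± 0.111 with SGA360 (SE; edgeR adjusted p = 2.3e-12) and 0.90 ± 0.115 with SGA315 (adjusted p = 2.3e-10). NUPR1, a stress response gene of the amino acid response list, averaged 4.23 ± 1.35 CPM with SGA360, 6.29 ± 0.843 CPM with SGA315 and 0.706 ± 0.104 CPM with lovastatin alone. The SLC15 genes and NUPR1 were chosen here after their values were seen.

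SLC38A10 gave different values by transcript entry. The entry with more counts (14988 in all) changed by −0.07 ± 0.038 with SGA315 (edgeR adjusted p = 0.0947), and the other entry (11645 counts) by −0.32 ± 0.043 (adjusted p = 1.55e-09). With SGA360 they changed by −0.18 ± 0.038 and −0.29 ± 0.043. Between the ligands they differed by −0.11 ± 0.038 and 0.03 ± 0.044. The entries of SLC3A2, SLC1A5 and SLC7A8 with the most and the fewest counts moved in the same direction in all 3 comparisons. For SLC3A2 the changes with SGA360 were 0.79 ± 0.028 and 0.82 ± 0.027. These 4 genes were chosen after their values were seen.

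Among the members too low to test, SLC38A8 had 6, 2 and 4 counts with SGA360, 1, 0 and 1 with SGA315, and 0, 1 and 0 with lovastatin alone. A count of 0 allows up to 3 counts in a library, so most of these counts lie within that limit, which is no test between groups. With 15 counts in all, SLC38A8 met the minimum for members only through its libraries with SGA360, so the higher counts there are no independent result.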
